A study of Mus musculus with 20 samples.

Results

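Oxidative phosphorylation is carried out by 5 complexes of the inner mitochondrial membrane. The nuclear genes for their subunits were followed here in liver RNA of responders to diet-induced obesity, the mice susceptible to it, and of non-responders, the resistant mice. The members were taken by gene name from the probe annotation of the array: names starting with Nduf and a subunit letter, the 4 Sdh genes, names starting with Uqcr, with Cox4 to Cox8 and with Atp5, and Cyc1 and Cycs. This rule found 86 genes with 124 probes, among 27434 genes with 41174 probes on the array. Of these, 83 genes were measured, meaning that a probe passed the scanner software's test against background on 5 or more arrays in a group, among 17178 genes measured in all. The name rule also takes in 4 genes that are not stable subunits, which left 79 subunits: 35 of complex I, 4 of complex II, 9 of complex III, cytochrome c, 15 of complex IV and 15 of complex V.

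All 20 samples were liver of 6-week-old males of the inbred C57BL/6J strain, fed from weaning onwards on chow in which fat gave 60% of the calories, so both groups carried the diet and no lean-fed group was analysed here. There were 10 responder and 10 non-responder samples, called livers here, each on 1 single-colour Agilent array. The labels describe mice but do not say that each sample is a separate mouse, so p-values rest on the spread among these 20 samples, which may be technical. In whole liver, fewer cells of a type and less RNA per cell cannot be told apart. Of 10 hepatocyte markers, 9 were measured, and their summed level lay between 2443 and 3793 times the array's 75th percentile in responder livers and between 2295 and 3857 times in non-responder livers. The arrays came in 2 slide series that coincide with 2 scan dates: 6 responders and 4 non-responders were in series 2, and 4 responders and 6 non-responders in series 1. Slide series was therefore a term in the fit behind each difference reported here. No spot was saturated.

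Complexes I to IV form the respiratory chain. Complex I (NADH dehydrogenase) and complex II (succinate dehydrogenase, which also works in the tricarboxylic acid cycle) pass electrons to coenzyme Q, complex III passes them on to cytochrome c, and complex IV (cytochrome c oxidase) hands them to oxygen. Complexes I, III and IV pump protons out of the matrix, and complex V (ATP synthase) lets them back to make ATP. The liver is rich in mitochondria and uses this system to burn fatty acids and to pay for glucose and urea synthesis. Complex IV is a special case in that several of its subunits exist as a form used in most tissues and a second form used in heart, skeletal muscle or brown fat.

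No subunit passed the test between the groups. With limma and Benjamini-Hochberg adjustment at 0.05, 0 of the 83 measured members passed, on a background of 0% of all 17178 genes. At an unadjusted p under 0.05 there were 2 members, Ndufv3 (higher) and Cox6b2 (lower), against 7.98% of all genes. All differences are log2 values, responder minus non-responder, adjusted for slide series unless given within a series or a slide. They can thus depart from the plain difference of the group means. Of the 79 subunits, 37 had a positive and 42 a negative difference. Among all genes 48.9% were positive and 51.1% negative. The median over subunits was -0.0052, beside -0.0031 over all genes.

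The intervals were narrow. For 73 of the 79 subunits the whole 95% interval, unadjusted, lay between -0.3 and 0.3. The 6 exceptions were Ndufs3 of complex I and Cox6a2, Cox6b2, Cox7a1, Cox7c and Cox8b of complex IV. The median standard error was 0.061 over 76 subunits, leaving out the muscle-type Cox6a2, Cox7a1 and Cox8b, and 0.104 over all genes. Of those 76 subunits, 74 varied less from liver to liver than the median gene. The plot of differences by complex shows every measured subunit with its interval.

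**Figure D1:**
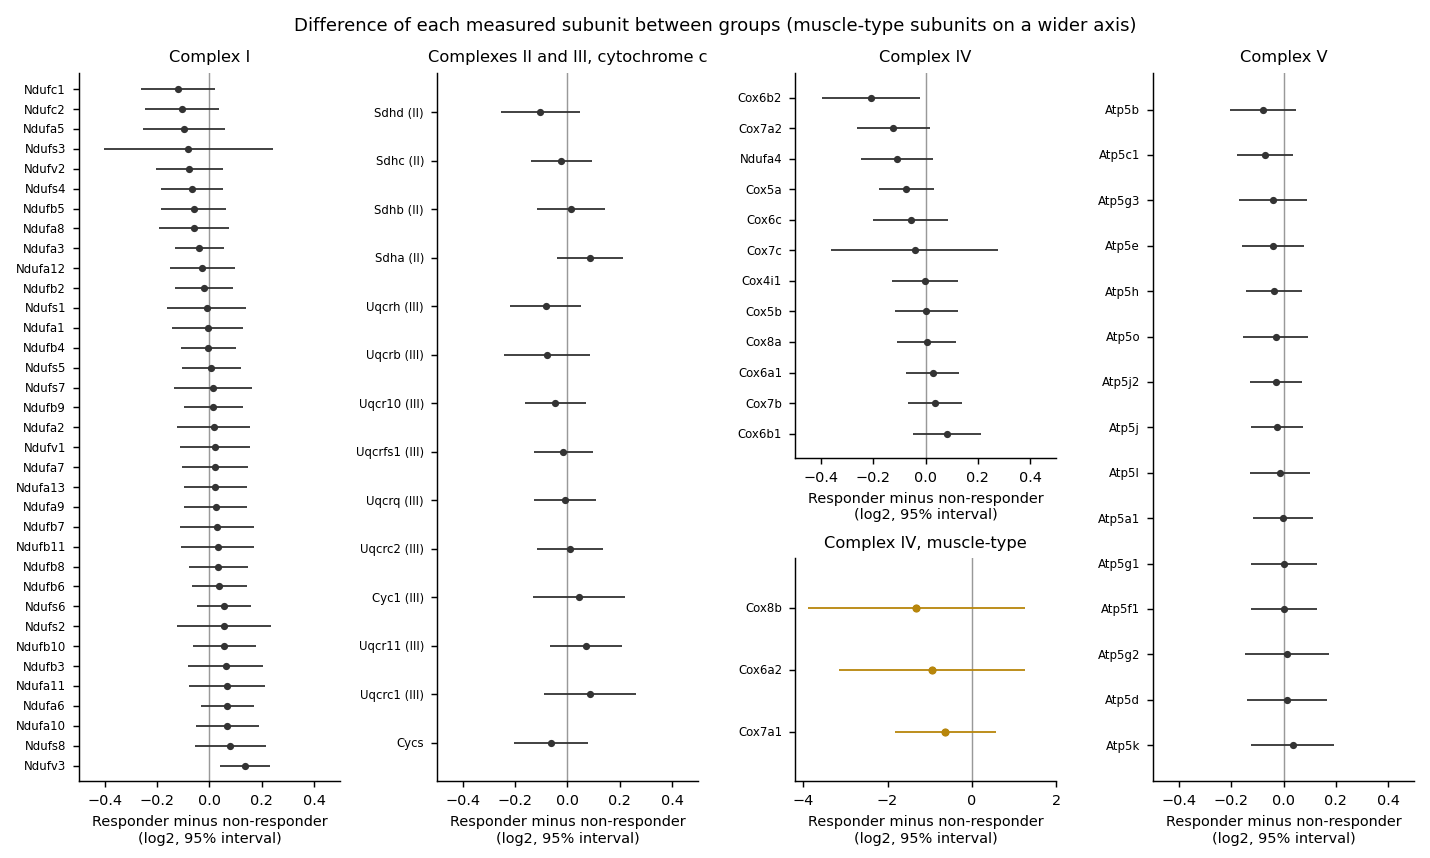
Difference of each of the 79 measured subunits between responder and non-responder livers (points, log2, responder minus non-responder, adjusted for slide series) with its unadjusted 95% interval (lines), by complex. The 3 muscle-type subunits have an axis of their own, from -4.2 to 2, because their intervals reach from -3.89 to 1.26, while all others lie between -0.40 and 0.28.

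In complex I, 21 of 35 subunits had a positive and 14 a negative difference, with a median of 0.016. The 7 catalytic core subunits, which hold the flavin and the iron-sulfur clusters, had 4 positive and 3 negative differences and a median of 0.014. Ndufs1, the largest subunit of that core, ranged from 5.18 to 5.61 with a median of 5.36 in responder livers, and from 5.02 to 5.67 with a median of 5.39 in non-responder livers, on the log2 scale relative to the array's 75th percentile that is used for all levels. Its groups overlapped almost fully, and the difference was -0.010 with a 95% interval of -0.16 to 0.14. Ndufv1, which binds NADH and the flavin, lay between 6.14 and 6.58 (median 6.31) in responders and between 6.17 and 6.44 (median 6.34) in non-responders, a difference of 0.021 (-0.11 to 0.15).

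Ndufv3, an accessory subunit of the NADH-binding module, had the smallest p of all members. Its level was 3.96, 4.10 and 4.15 (lowest, median and highest) in responder livers, against 3.81, 3.96 and 4.11 in non-responder livers. The groups overlapped, with 5 responders above the highest non-responder and 5 non-responders below the lowest responder. All 10 responders exceeded the average non-responder of their own slide series. The difference was 0.14 with an SE of 0.046, 0.10 in series 1 and 0.17 in series 2, and it did not pass (limma, adjusted p = 0.524, unadjusted p = 0.0074). Ndufv3 has 3 probes that were all well above background in all livers, at mm9 positions chr17:31658570-31658629, chr17:31664691-31664750 and chr17:31665148-31665207 on the plus strand. Their sequences, from the deposited files, are shown because they are separate stretches of the same gene that gave the same sign.
Ndufv3 site A: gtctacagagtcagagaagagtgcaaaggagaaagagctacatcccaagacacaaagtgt
Ndufv3 site B: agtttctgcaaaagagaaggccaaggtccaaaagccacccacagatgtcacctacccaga
Ndufv3 site C: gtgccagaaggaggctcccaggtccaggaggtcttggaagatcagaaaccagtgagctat
Site A is the probe used above. Sites B and C were much dimmer, with mean levels over all livers of -0.68 and 0.30, against 4.02 for site A. All 3 probes read the same samples, so the shared sign is not a separate test. Site B had a difference of 0.15 (SE 0.071) and site C of 0.23 (SE 0.073). Their correlations with site A over the 20 livers were 0.24 and 0.54. For sites A and C the difference was larger than the SD within either group, and for site B it lay between the SDs of both groups.

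**Figure D2:**
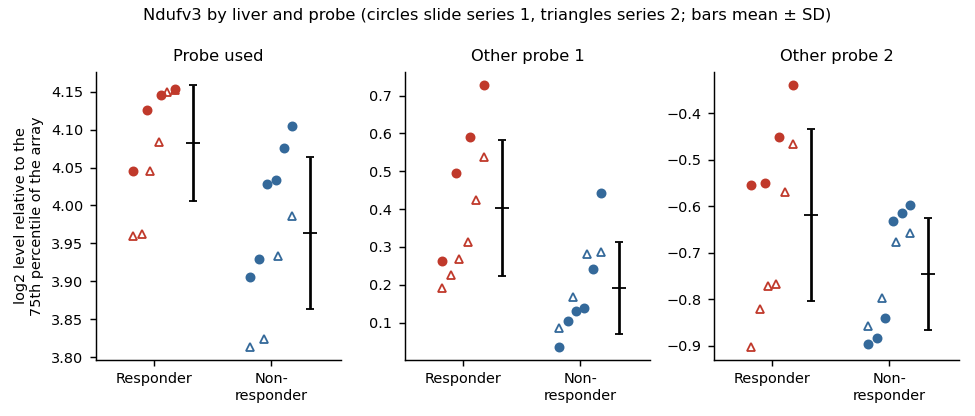
Level of Ndufv3 in each liver (log2 relative to the array's 75th percentile) by its 3 probes, responders at left and non-responders at right of each panel. Filled circles are slide series 1, open triangles slide series 2, and bars the mean ± SD (n = 10). With the probe used, responders averaged 4.08 ± 0.076 and non-responders 3.96 ± 0.10, and the groups overlap for all 3 probes.

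The next smallest p-values in complex I belonged to both Ndufc subunits, small accessory proteins of the membrane arm, and both were negative. Ndufc1 was 5.29, 5.64 and 5.97 (lowest, median and highest) in responders and 5.48, 5.79 and 6.14 in non-responders, a difference of -0.12 (SE 0.067, limma adjusted p = 0.679). Ndufc2 was 5.78, 6.11 and 6.26 in responders and 5.96, 6.21 and 6.31 in non-responders, a difference of -0.10 (SE 0.067, adjusted p = 0.717). The groups overlapped for both, and 2 of 10 responders exceeded the average non-responder of their series for each. A second probe of Ndufc1 had the opposite sign. Ndufb3 was measured on 19 of 20 arrays, because its spot was flagged on 1, and its difference was 0.062 (SE 0.069). The widest interval in complex I was that of Ndufs3, a core subunit, from -0.40 to 0.24. A single responder liver stood at 4.52, while all other livers lay between 5.73 and 6.19. Without that liver the difference of Ndufs3 was 0.037, against -0.081 with it.

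Complex II had 2 subunits on each side of 0. Both catalytic subunits were positive and both membrane anchors negative, by less than their intervals. Sdha, which binds succinate and the flavin, was 4.01, 4.34 and 4.49 in responders (lowest, median and highest) and 4.06, 4.21 and 4.35 in non-responders, a difference of 0.085 (SE 0.061, limma adjusted p = 0.743). Sdhb, the iron-sulfur subunit, lay between 5.38 and 5.80 (median 5.50) in responders and between 5.24 and 5.80 (median 5.53) in non-responders, a difference of 0.013 (95% interval -0.12 to 0.14). Sdhd, one of the anchors, was 5.92, 6.27 and 6.38 in responders and 6.09, 6.33 and 6.61 in non-responders, a difference of -0.10 (SE 0.072, adjusted p = 0.739). The groups overlapped for each of them.

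In complex III, 4 of 9 subunits were positive and 5 negative, with a median of -0.0098. Cyc1, cytochrome c1, lay between 6.24 and 6.87 (median 6.61) in responders and between 6.10 and 6.84 (median 6.51) in non-responders, a difference of 0.045 (95% interval -0.13 to 0.22). Uqcrfs1, the Rieske iron-sulfur protein, lay between 5.45 and 6.10 (median 5.73) in responders and between 5.54 and 6.14 (median 5.90) in non-responders. Its medians stood further apart than its difference of -0.016 (-0.13 to 0.098), which is adjusted for slide series. Uqcrh, the hinge protein that helps cytochrome c1 meet cytochrome c, had the smallest p of the complex. It was 7.40, 7.63 and 8.0 in responders and 7.59, 7.78 and 8.05 in non-responders, a difference of -0.084 (SE 0.064, limma adjusted p = 0.767). A second probe of Uqcrh, also well above background in all livers, had the opposite sign, 0.024 (SE 0.053). Uqcr11, a small accessory subunit, was 7.09, 7.42 and 7.75 in responders and 7.07, 7.43 and 7.77 in non-responders, a difference of 0.071 (SE 0.066, adjusted p = 0.800). The mobile carrier itself, Cycs, was 4.95, 5.18 and 5.46 in responders and 5.01, 5.28 and 5.59 in non-responders. Its difference was -0.063 (SE 0.067, adjusted p = 0.825), and it had opposite signs in the 2 slide series, -0.15 in series 1 and 0.021 in series 2. The groups overlapped for all of these genes.

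Complex IV had 10 of 15 subunits negative and a median of -0.056. Without the 3 muscle-type subunits the median over 12 was -0.021. Cox4i1, which binds ATP and tunes the enzyme, lay between 7.48 and 7.95 (median 7.76) in responders and between 7.57 and 7.94 (median 7.76) in non-responders, a difference of -0.0013 (95% interval -0.13 to 0.12). Cox5a ranged from 7.48 to 7.91 (median 7.72) in responders and from 7.65 to 8.0 (median 7.77) in non-responders. Its difference was -0.073 (-0.18 to 0.033), and 1 of 10 responders exceeded the average non-responder of its series. Cox7a2, the form used in liver and most tissues, was 6.02, 6.38 and 6.84 in responders and 6.25, 6.68 and 6.94 in non-responders. The difference was -0.12 (SE 0.066, limma adjusted p = 0.659), of which series 1 gave -0.018 and series 2 gave -0.23. Ndufa4, once counted with complex I and now with complex IV, was 5.77, 6.06 and 6.46 in responders and 5.90, 6.27 and 6.49 in non-responders, a difference of -0.11 (SE 0.066, adjusted p = 0.703). The groups overlapped for all of these subunits.

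Cox6b2, the form of subunit 6b known from testis, was the only subunit below 0 whose unadjusted interval left out 0. Its level was -2.60, -2.10 and -1.59 in responders and -2.27, -1.82 and -1.35 in non-responders, with overlapping groups and 2 of 10 responders above the average non-responder of their series. The difference was -0.21 (SE 0.090, limma adjusted p = 0.603, unadjusted p = 0.032), with -0.22 in series 1 and -0.19 in series 2. Its partner in other tissues, Cox6b1, had a difference of 0.082 (95% interval -0.047 to 0.21). Cox4i2, the form known from lung, and Cox7b2 were not well above background on any array, and Cox8c was so on 1 responder array only, so no difference is given for them.

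The muscle-type forms varied more between livers than any other measured subunit. Cox6a2, Cox7a1 and Cox8b are the forms of subunits 6a, 7a and 8 known from heart, skeletal muscle or brown fat. Cox8b was -5.11, -0.34 and 4.41 (lowest, median and highest) in responders and -4.33, 2.77 and 4.44 in non-responders. Cox6a2 was -2.54, 0.53 and 4.95 in responders and -2.32, 3.16 and 5.01 in non-responders. Cox7a1 was 0.16, 1.29 and 4.57 in responders and 0.44, 3.06 and 4.43 in non-responders. Within each group the lowest and the highest liver thus lay several log2 units apart, and the groups overlapped over nearly the whole range. The residual spread of the 3 genes ranked at percentiles 98.7 to 99.7 of all genes. The differences were -1.32 (95% interval -3.89 to 1.25) for Cox8b, -0.95 (-3.16 to 1.26) for Cox6a2 and -0.63 (-1.82 to 0.56) for Cox7a1, none near the threshold (limma adjusted p 0.798 to 0.828).

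The liver forms of the same subunits, Cox8a, Cox6a1 and Cox7a2, lay at percentiles 3.76, 0.739 and 15.7 of residual spread over all genes. Cox8a lay between 7.0 and 7.37 (median 7.18) in responders and between 6.98 and 7.42 (median 7.21) in non-responders, a difference of 0.0044 (95% interval -0.11 to 0.12). Cox6a1 lay between 8.72 and 9.23 (median 8.88) in responders and between 8.73 and 9.25 (median 9.01) in non-responders, a difference of 0.027 (-0.074 to 0.13).

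Markers of striated muscle moved with the muscle-type subunits from liver to liver. All 12 listed muscle markers, among them the fast troponins and myosins, were measured, and 12 of 12 had a negative difference, with none at an unadjusted p under 0.05. The 12 markers varied together over the livers, so that count is not 12 separate results. The difference of their mean was -1.23 (SE 1.56). Their summed level lay between 0.311 and 530 times the array's 75th percentile in responder livers (median 26.8) and between 0.463 and 525 times in non-responder livers (median 169). Of the 12 markers, 4 were well above background on all 20 arrays, and Myh1, Myh4 and Tnnt3 passed that test on 8 arrays of responders and 9 of non-responders each. Pearson's r with the mean of the markers over the 20 livers was 0.987 for Cox8b, 0.964 for Cox6a2 and 0.923 for Cox7a1, and Spearman's rho was 0.994, 0.982 and 0.979 (permutation p = 1e-05 for each, the smallest that 100000 permutations can give, adjusted p = 2e-05 over 6 relations). Without the 2 livers farthest from the median of the markers r was 0.990, 0.978 and 0.927. Within slide series r lay between 0.958 and 0.997 in series 1 and between 0.898 and 0.985 in series 2, and over the 16 livers with more marker signal it lay between 0.954 and 0.995. For adipose markers r was 0.753, 0.755 and 0.772 (permutation p = 0.00018, 0.00028 and 0.00018) for Cox8b, Cox6a2 and Cox7a1. Within slide series it lay between 0.594 and 0.718 in series 1 and between 0.667 and 0.788 in series 2. For both marker lists the permutations ran over all 20 livers and did not keep slide series or group apart. Of 9 measured adipose markers, 7 had a negative difference. Of these, 6 were at an unadjusted p under 0.05, beside 3.73% of all genes in that direction, and 0 passed adjustment. Their summed level lay between 143 and 323 times the array's 75th percentile in responders and between 165 and 246 times in non-responders. Most of that sum was Car3, a carbonic anhydrase with a difference of 0.13. Without Car3, left out after the data were seen, the sum lay between 5.52 and 15.4 times (median 8.67) in responders and between 7.35 and 35.3 times (median 16.2) in non-responders. Plin1, a fat droplet protein, was well above background on 3 arrays of responders and 8 of non-responders, so it was measured only through the non-responders, as was Ucp1. Both are among the 9 adipose markers, and a gene kept only through non-responders is likelier to show a negative difference. Pancreatic acinar markers varied as well: all 9 measured had a negative difference (median -1.04), none at an unadjusted p under 0.05. The difference of their mean was -0.81 (SE 1.64). The part of these marker lists in the values of these 3 subunits was not tested.

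**Figure D3:**
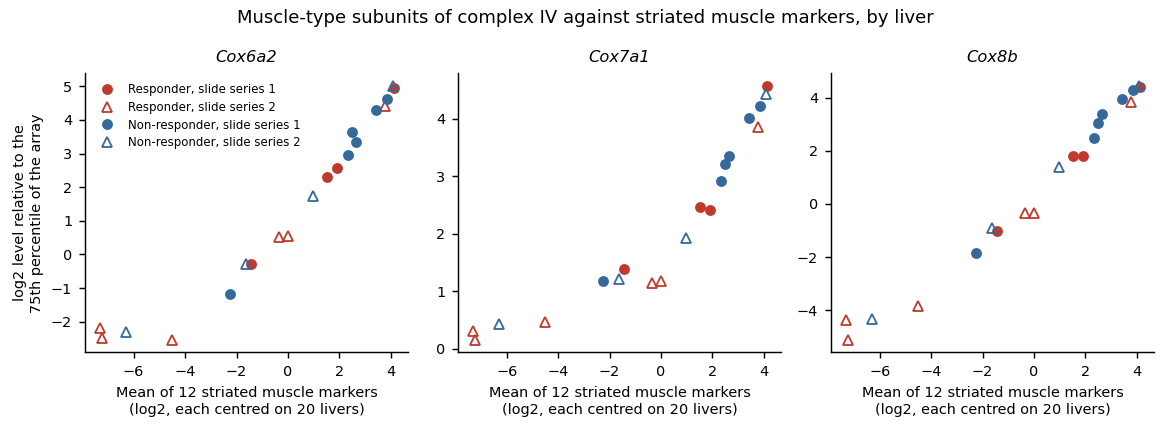
Level of Cox6a2, Cox7a1 and Cox8b in each liver (vertical, log2 relative to the array's 75th percentile) against the mean of 12 striated muscle markers in the same liver (horizontal, log2, each marker centred on the 20 livers). Points are livers, coloured by group and shaped by slide series. The marker mean runs from -7.33 to 4.11 and the 3 subunits climb with it in both groups, with r of 0.964, 0.923 and 0.987.

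The mean of complex IV was given with and without these 3 subunits. The mean over its 15 subunits in each liver, each subunit centred on its mean over the 20 livers, lay between -0.88 and 0.80 (median -0.26) in responders and between -0.77 and 0.73 (median 0.37) in non-responders, a difference of -0.22 (SE 0.20). Over the other 12 subunits it lay between -0.35 and 0.20 (median -0.12) in responders and between -0.26 and 0.31 (median 0.038) in non-responders, a difference of -0.038 (SE 0.042). That alternative was added after the data were seen.

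In complex V, 5 of 15 subunits were positive and 10 negative, with a median of -0.025, and all 15 intervals lay between -0.3 and 0.3. Atp5a1, the alpha subunit of the F1 head, lay between 7.06 and 7.67 (median 7.30) in responders and between 7.08 and 7.66 (median 7.40) in non-responders, a difference of -0.0023 (95% interval -0.12 to 0.11). Atp5b, the catalytic beta subunit, was 7.75, 8.08 and 8.37 in responders and 8.0, 8.22 and 8.40 in non-responders, a difference of -0.079 (SE 0.060, limma adjusted p = 0.763). It has 4 probes that disagreed in sign, with differences from -0.084 to 0.16. Atp5c1, the gamma subunit that turns inside the head, was 6.89, 7.07 and 7.44 in responders and 6.97, 7.24 and 7.52 in non-responders, a difference of -0.070 (SE 0.051, adjusted p = 0.752). Atp5h, a subunit of the side stalk, was 6.71, 6.90 and 7.10 in responders and 6.78, 6.98 and 7.07 in non-responders, a difference of -0.037 (SE 0.051, adjusted p = 0.859). The groups overlapped for each. The c-ring genes Atp5g1, Atp5g2 and Atp5g3 had differences between -0.041 and 0.013. The probe of Atp5k, a membrane subunit, is placed on chromosome Y by the array annotation, so a near-identical copy may share its signal.

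The difference between groups was also compared between the slide series. The interaction of group and series was called for 0 members and 0% of all genes, and 1 member, Atp5e, had an unadjusted interaction p under 0.05 (limma, p = 0.037, adjusted p = 0.487), against 9.66% of all genes. The 3 slides that held a liver of each group gave differences of the mean over all subunits of -0.22, 0.20 and -0.080. Without Cox6a2, Cox7a1 and Cox8b, left out after the data were seen, these differences were -0.066, -0.031 and -0.0052.

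**Figure D4:**
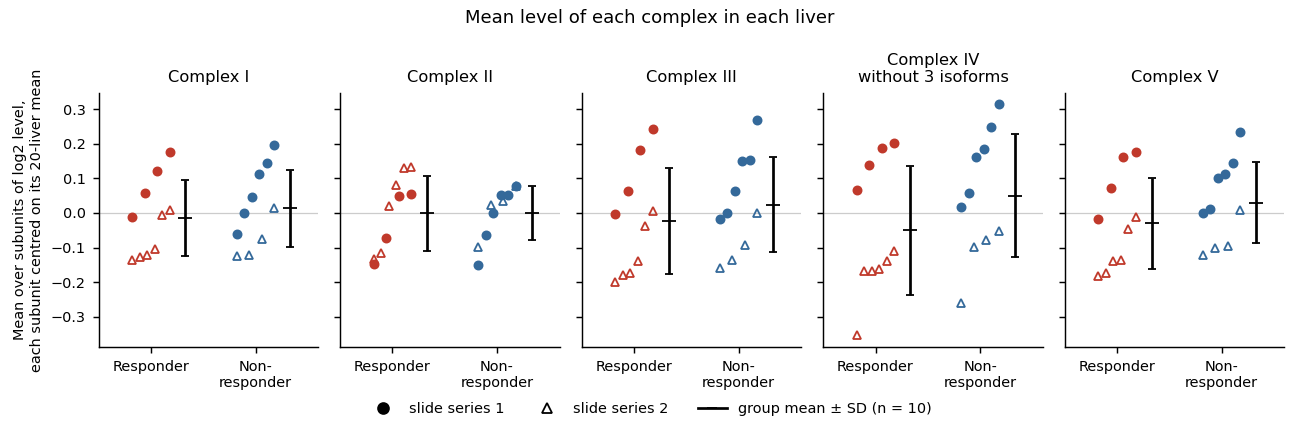
Mean level of each complex in each liver (log2, each subunit centred on its mean over the 20 livers), responders at left and non-responders at right of each panel, with complex IV without Cox6a2, Cox7a1 and Cox8b. Filled circles are slide series 1, open triangles slide series 2, and bars the group mean ± SD (n = 10). The groups overlap in every complex, and in complexes I, III, IV and V the livers of series 2 lie mostly below those of series 1.

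More subunits passed the test between the slide series than between the groups. With series 2 set against series 1 in the same fit, 40 of 79 subunits were lower (limma, adjusted p under 0.05), on a background of 12.7% of all genes (30.3% in either direction), and 2 were higher, Sdhc and Cyc1, on a background of 17.6%. The median shift was -0.18 over subunits, beside 0.018 over all genes. By complex, lower calls were made for 15 of 35 subunits of complex I, 0 of 4 of complex II, 6 of 9 of complex III, Cycs, 11 of 15 of complex IV and 7 of 15 of complex V. Cox7c, at -0.68, had the largest shift among the called subunits. Slide series, scan date and whatever else changed between the batches cannot be told apart.

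**Figure D5:**
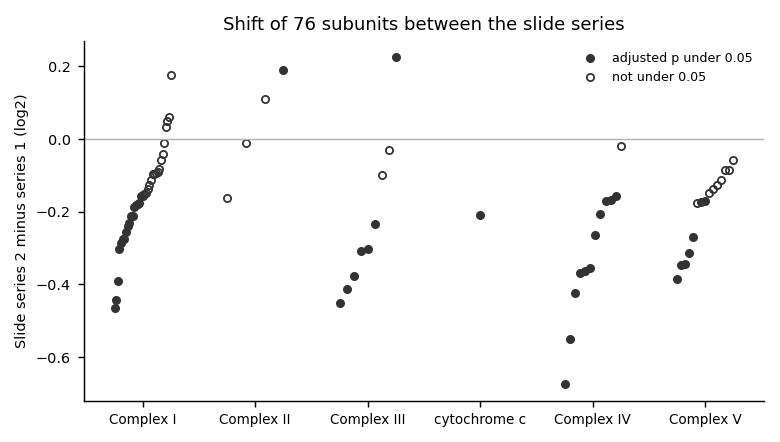
Shift of 76 subunits (without Cox6a2, Cox7a1 and Cox8b) from slide series 1 to slide series 2 (vertical, log2, series 2 minus series 1, adjusted for group), by complex. Each point is a subunit, filled where the limma adjusted p was under 0.05. Of the filled points 40 lie below 0, and 2 above, 1 each in complexes II and III.

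After group and slide series were removed, the subunits varied together over the livers. Over the 2850 pairs of the 76 subunits without the muscle-type forms, the median r over 20 livers was 0.40, and 90.2% of pairs were above 0, against a median of 0.008 and 50.9% above 0 over all pairs of genes. Pairs from different complexes had a median r of 0.40, close to 0.41 within complex I, 0.45 within complex II, 0.43 within complex III, 0.44 within complex IV and 0.43 within complex V. Ndufb9 and Cox5b followed the others most closely, with mean r of 0.55 and 0.53, and Ndufa1 and Cox7c least, at -0.0005 and 0.034. All these pairs share arrays and scaling, and the values are a description. Of the 76 subunits, 74 varied less than the median gene, so all pairs of genes are an unlike background. Genes outside the members also followed the mean of the 76 subunits, such as Mrpl20 (r = 0.93), Fahd2a (0.87) and Ubxn6 (0.87). Their r is with a mean, so it cannot be set beside the mean r of single subunits.

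Of 27 members with more than 1 measured probe, the probes disagreed in sign for 8. A second, dim probe ran against the probe used for Atp5j2 (r = -0.79) and Uqcrq (r = -0.50). The 4 members that are not stable subunits were Cox7a2l, a factor of supercomplex assembly, and Cox4nb, Atp5s and Atp5sl, whose current symbols are Emc8, Dmac2l and Dmac2. Their differences lay between -0.12 and 0.079, and none passed.

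Genes that serve the complexes also gave 0 calls. Of 46 measured assembly factors, 27 were positive and 19 negative (median 0.019). Ndufaf3, which helps build complex I, had the smallest p. It was 1.31, 1.5 and 1.71 in responders and 1.03, 1.27 and 1.41 in non-responders, a difference of 0.22 (SE 0.063, limma adjusted p = 0.489), with all 10 responders above the average non-responder of their series. The 4 measured subunits encoded in mitochondrial DNA were all positive (median 0.12), ND4 most at 0.17 (SE 0.071, adjusted p = 0.590). For ND4 the series differed in size, 0.067 in series 1 and 0.28 in series 2. Of 19 measured genes of coenzyme Q synthesis and other electron entry, 13 were positive, 4 of them at an unadjusted p under 0.05, beside 4.25% of all genes in that direction, and Coq6, a hydroxylase of the coenzyme Q ring, had a difference of 0.18 (SE 0.069, adjusted p = 0.541).

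On the other side of 0, 11 of 14 tricarboxylic acid cycle genes were negative (median -0.059), and Idh3a, the catalytic subunit of NAD-dependent isocitrate dehydrogenase, had the smallest p, at -0.27 (SE 0.10, limma adjusted p = 0.541). That direction of the cycle genes was not shared by the slide series. In series 1, 12 of the 14 were negative (median -0.071), and in series 2, 7 were negative and 7 positive (median -0.0017). Of 21 regulators of mitochondrial biogenesis 11 were negative, 3 of them at an unadjusted p under 0.05, beside 3.73% of all genes in that direction. The other 10 were positive, and 1 of them, Hcfc1, a cofactor of transcription, was at an unadjusted p under 0.05 (0.17, SE 0.075, adjusted p = 0.603). Tfb2m, a transcription factor of mitochondrial DNA, had a difference of -0.21 (SE 0.082, adjusted p = 0.541). The coactivators of mitochondrial biogenesis Ppargc1a and Ppargc1b, named like Hcfc1 and Pprc1 after their values were seen, had differences of -0.46 (SE 0.20, adjusted p = 0.603) and -0.42 (SE 0.18, adjusted p = 0.599). Pprc1, of the same family, had a difference of -0.12 (SE 0.14, adjusted p = 0.842), with opposite signs in the series, -0.49 in series 1 and 0.25 in series 2. Of 8 genes of uncoupling and exchange across the inner membrane, 6 were negative. Ucp1, the uncoupling protein of brown fat and also one of the adipose markers above, was well above background on 1 array of responders and 7 of non-responders. Its level was -8.66, -7.37 and -4.17 (lowest, median and highest) in responders and -7.49, -2.82 and 1.85 in non-responders. No size of the difference is given, because nearly all responder values were not well above background, and the gene did not pass (limma, adjusted p = 0.489).

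Promoter windows were set beside these results because the muscle-type forms of complex IV varied together from liver to liver, and the other subunits among themselves. RefSeq windows (GRCm38.p6) of 250 bases before to 50 after a transcription start were matched by symbol for 66 subunits, with 71 windows, among 32851 windows in all. Each motif was searched on both strands. The palindromic core site of NRF1, an activator of respiratory chain genes, was in 5 of the 71 members' windows (7.04%) and 0.971% of all windows. AAGATGGCG, a YY1 site, was in 7 (9.86%) and 1.40%. CCGGAAGT, an ETS site of the class that GABPA binds, was in 5 (7.04%) and 3.89%. TCAAGGTCA, of the class bound by ERR nuclear receptors, was in 2 (2.82%) and 0.423%. CAGCTG, an E-box of the kind bound by muscle regulators, was added after the data were seen. It was in 6 (8.45%) and 16.3%. These counts are small. The median GC content of the 250 bases before the start was 56.4% for members and 52.4% for all windows. Its part in these shares was not tested. No motif searched contains another, and a match is a description only.

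The 250 bases before the start are shown for both muscle-type forms with a window, for the liver form Cox8a, and for a member each with an NRF1 and an ERR-class match, with matches in capitals. The windows are chr7:140900447-140900696 (minus strand, Cox8b), chr7:30183921-30184170 (plus strand, Cox7a1), chr19:7217617-7217866 (minus strand, Cox8a), chr5:115348959-115349208 (minus strand, Cox6a1) and chr2:73911327-73911576 (minus strand, Atp5g3).
Cox8b: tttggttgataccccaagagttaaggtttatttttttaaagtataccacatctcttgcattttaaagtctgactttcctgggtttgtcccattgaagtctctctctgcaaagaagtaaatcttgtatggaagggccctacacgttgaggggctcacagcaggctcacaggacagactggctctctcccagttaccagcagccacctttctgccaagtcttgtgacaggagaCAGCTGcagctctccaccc
Cox7a1: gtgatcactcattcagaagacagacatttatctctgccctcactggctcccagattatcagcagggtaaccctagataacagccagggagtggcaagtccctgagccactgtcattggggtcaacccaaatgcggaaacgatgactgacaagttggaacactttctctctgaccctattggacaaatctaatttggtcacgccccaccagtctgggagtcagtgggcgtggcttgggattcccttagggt
Cox8a: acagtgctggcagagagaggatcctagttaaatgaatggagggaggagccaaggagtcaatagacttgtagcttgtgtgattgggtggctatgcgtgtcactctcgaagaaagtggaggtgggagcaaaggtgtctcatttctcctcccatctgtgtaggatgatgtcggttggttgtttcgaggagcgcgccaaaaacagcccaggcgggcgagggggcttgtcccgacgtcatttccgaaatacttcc
Cox6a1: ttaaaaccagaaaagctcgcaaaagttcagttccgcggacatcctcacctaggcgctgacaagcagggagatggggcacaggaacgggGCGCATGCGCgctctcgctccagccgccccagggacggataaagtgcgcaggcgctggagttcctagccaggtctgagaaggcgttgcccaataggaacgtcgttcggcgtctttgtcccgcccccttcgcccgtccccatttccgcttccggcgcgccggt
Atp5g3: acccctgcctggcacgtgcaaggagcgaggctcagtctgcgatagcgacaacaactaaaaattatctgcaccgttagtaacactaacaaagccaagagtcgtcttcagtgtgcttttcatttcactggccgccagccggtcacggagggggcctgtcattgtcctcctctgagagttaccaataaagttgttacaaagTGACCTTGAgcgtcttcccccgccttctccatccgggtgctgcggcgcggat
Cox8b held CAGCTG starting 19 bases before the start, Cox6a1 held the NRF1 site starting 162 bases before it, and Atp5g3 held the ERR-class site, on the opposite strand, starting 52 bases before it. Cox7a1, the other muscle-type form shown, held no match to any motif searched. Cox8a held 2 ETS matches on the opposite strand that are not capitalised: 1 straddles the start, with its first 6 bases at the end of the sequence shown, and 1 lies in the 50 bases after it, which are not shown.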

How the data were processed

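Mouse liver RNA of 20 samples was labelled with Cy3 after linear amplification and hybridised to 1 single-colour Agilent array each, per the labels' protocols. The authors deposited the scanner output, which holds 1 linear intensity per spot. Per the file headers, that intensity had local background subtracted and spatial trends of the array removed. Agilent Feature Extraction is named as version 10.5.1.1 in the headers, and as 9.1 per the submitters' processing notes. The deposited value table of 33220 rows, on a linear scale and not centred, has column medians of 66.5 to 69.9, and all 20 of its columns were most like their own array. The sources used here do not say how it was made.

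Values are log2 of the processed intensity minus each array's 75th percentile, which was 280.1 to 657. Control spots and spots with an outlier flag (other deposited 0 or 1 flags of the feature extraction) were dropped, and replicate spots averaged. A probe was kept if called well above background on 5 or more arrays in a group, and the brightest kept probe stood for its gene. Between 55.8% and 71.2% of spots were well above background, and the number of arrays limits the precision. Symbols came from a RefSeq table of GRCm38.p6 by accession for 27572 probes, by symbol for 5419 and by older symbol for 663, and the array's own name was kept for 1248. Probe positions are those of the array annotation (mm9).

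Comparisons were fitted in limma 3.58.1 (R 4.3.3) with group and slide series as terms, over 17178 genes, with Benjamini-Hochberg adjustment. The fit was tested on simulated data with added differences larger than that of any subunit outside the muscle-type forms. That test does not show whether the fit would find smaller differences. Permutation tests used Python 3.11.15 with SciPy 1.17.1. Named were the 3 smallest p-values of complexes I, IV and V, the 2 smallest of complexes II and III, cytochrome c, 10 core subunits, the isoform pairs, and the smallest p of each companion list. Ndufs3, Cox6b1, Cox7c, Ndufb3, Atp5e, Atp5k and the other genes given in passing were named after their values were seen. The members, lists and markers were chosen with earlier results of these data known. Alternatives were other background corrections, scalings, filters, terms and probe summaries, the authors' deposited values, and leaving out each array.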

Additional observations from a re-analysis of the deposited data

Results flagged for a closer look

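For the named members, Ndufs3, Cox7c and the means over complexes, 70 groups of 10 livers were searched for a liver far from the rest. Chance alone sets a liver apart in about 1 in 20 such groups. Ndufs3 and Cox7c were added after their values were seen, so that rate does not apply to them. In 2 groups 1 liver stood apart by Dixon's test at the 95% level, from its gap to the nearest liver as a share of the group's range. For Ndufs3 in responders, the lowest liver (responder 7) was at 4.52 and the next at 5.73, a gap of 0.736 of the range. For Sdhb in responders, the highest liver (responder 2) was at 5.80 and the next at 5.59, a gap of 0.509 of the range. Without that liver the difference of Sdhb was -0.015, against 0.013 with it.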

How the results depend on the processing

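The count of called members and of all called genes was 0 under all alternatives run and without any single array. The smallest adjusted p among members lay between 0.35 and 0.92, leaving aside normexp without 2 arrays, and members at an unadjusted p under 0.05 numbered 0 to 8. The median over subunits, -0.0052 in the fit reported, lay between -0.021 and 0.013 without 1 array and between -0.035 and 0.015 under the other alternatives, except under normexp, where it was -0.49. Normexp moved the subunit mean of responder 1 by -3.62 and of responder 5 by -1.04. Without these 2 arrays, and after plain subtraction, both alternatives chosen after seeing the data, the median was 0.015 and -0.0087. Under normexp on all arrays signs turned for Ndufv3 (-0.31), Cox6b2 (0.093), Sdha (-0.38), Uqcr11 (-0.47), Ndufaf3 (-0.0012) and ND4 (-0.32). Atp5b turned to 0.080 in the authors' values and 0.016 with the mean of all probes; the cause was not tested. Uqcr11 was -0.011 without the series term and with the replicate block. The numbers in the titles were not used as pairs in the fit reported, and whether they pair the samples is not settled. Same-numbered livers had correlations of deviations from -0.29 to 0.69, over 0.1 in 7 of 10 pairs. Of the 10 responder livers, 3 matched their own number best, and 6 of the 10 pairs shared a slide series. With the replicate block the median was -0.035, 0 members were called and 8 had an unadjusted p under 0.05. Over all 11 alternatives, these included, 341 of 361 values of named genes kept their side, or moved by less than the spread within groups. The rest were the 10 changes of sign above and 10 shifts under normexp.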
